A study of Mus musculus with 14 samples.

Results

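The GIMAP genes (GTPases of immunity-associated proteins) were examined in splenic T cells of mice with chronic myeloid leukemia (CML) in chronic phase (CP) or blast crisis (BC). The members were taken by name as the rows of the deposited counts table for Gimap1, Gimap3, Gimap4, Gimap5, Gimap6, Gimap7, Gimap8 and Gimap9, which are 8 of the 24091 genes listed. All 8 members passed the filter on low counts, which kept 12248 genes, and no member had fewer than 736 reads in any mouse. GIMAP proteins are GTP-binding proteins of lymphocytes with a GTPase domain of the AIG1 type, and several of them attach to the membranes of the endoplasmic reticulum, Golgi apparatus, lysosomes or autophagosomes. They are best known for the survival of resting T cells, and loss of GIMAP5 leaves rats and mice with few peripheral T cells. Their genes lie side by side in 1 cluster.

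T cells were sorted from the spleen of 8 CP CML mice (Mir142+/+BCR-ABL) and 6 BC CML mice (Mir142−/−BCR-ABL), with 200000 cells and 1 library for each mouse. The study used male and female mice, and the sample labels used here give no sex. All 8 CP CML and 6 BC CML mice were C57BL/6J, 6 to 10 weeks old, and received no treatment. All of them carried SCLtTA/BCR-ABL, in which regulatory sequence of the Scl gene drives the transactivator in blood stem and progenitor cells, and BCR-ABL had been induced by tetracycline withdrawal for 3 weeks. The Mir142 deletion of the BC CML mice was germline, so it was present in every cell of the mouse and not in T cells alone, and no mouse without BCR-ABL was analysed here. The comparison asks which T cell transcripts differ when miR-142, a microRNA of blood cells, is missing in these leukemic mice.

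The libraries held 15703702 to 19914531 reads in CP CML and 16145537 to 19399720 in BC CML. Mir142, the deleted gene, had 302 to 650 reads in CP CML and 0 in all 6 BC CML libraries. The T cell identity list was at 5766 to 6560 CPM (reads per 1000000 reads of the TMM-scaled library, summed over 15 genes) in CP CML and at 7366 to 7875 in BC CML. The summed markers of other cells were also higher in BC CML, at 555 to 1369 CPM against 79.1 to 458 for 12 myeloid genes, 225 to 452 against 78.5 to 107 for 8 NK cell genes and 112 to 608 against 67.1 to 202 for 10 B cell genes. Lymphocytes other than T cells also express GIMAP genes, and the part of these cells in the results below was not tested. The 10 endothelial genes summed to 153 to 193 CPM in CP CML and 140 to 200 CPM in BC CML, most of it Pecam1 (143 to 179 and 130 to 182 CPM), which T cells also express, and Eng (9.17 to 13.1 and 8.66 to 15.3 CPM). Kdr and Vwf reached at most 1.18 and 1.04 CPM in a mouse, and Emcn, Cdh5, Tek, Egfl7, Plvap and Ptprb were under 1 CPM in all 14. In a bulk sample, fewer cells of a type and less RNA per cell cannot be told apart.

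Every member of the family was higher in BC CML. All 8 Gimap genes passed the test (edgeR's quasi-likelihood test, Benjamini-Hochberg adjusted over 12248 genes) and all 8 were higher in BC CML than in CP CML, except that Gimap1 was at −0.014 (log2 fold change, adjusted p = 0.764) when libraries were scaled to their CD3 chain reads in place of TMM. In the same test 32.6% of all genes were higher and 32.7% lower. The log2 fold changes of the members ranged from 0.23 for Gimap1 to 1.16 for Gimap4 with a median of 0.60, beside a median of −0.0083 over all genes tested. In 7 of the 8 genes every BC CML mouse lay above every CP CML mouse, a pattern that 19.3% of all genes showed. The reads of the 8 genes together made up 0.345% to 0.411% of a CP CML library and 0.587% to 0.684% of a BC CML library. Summed over the family, the level was 3824 ± 233 CPM (SD, n = 8) in the CP CML mice and 6355 ± 360 CPM (SD, n = 6) in the BC CML mice.

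**Figure D1:**
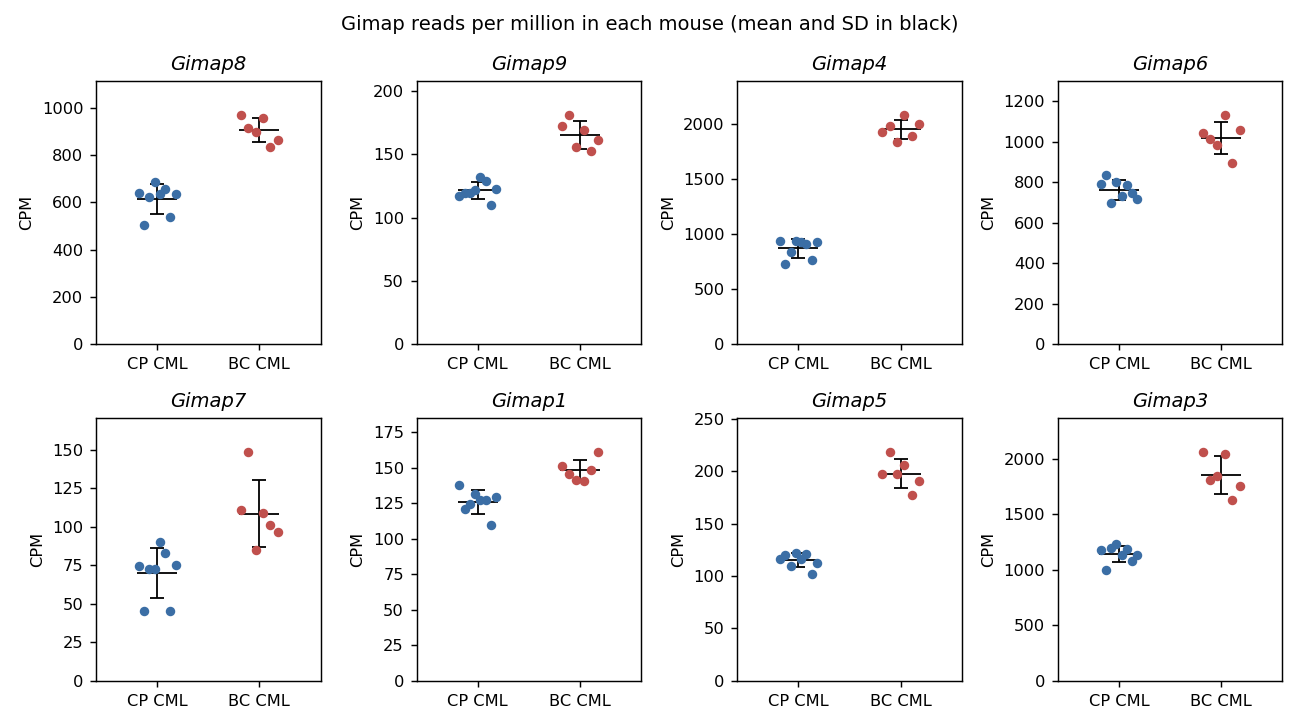
CPM of each Gimap gene (y axes, linear from 0) in the 8 CP CML and 6 BC CML mice, with 1 point per mouse and the mean and SD in black, in chromosomal order. The BC CML mice lie above all CP CML mice in every panel but that of Gimap7, and the difference of Gimap1 was lost when libraries were scaled to CD3 chain reads.

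The CD3 scaling sets each library to the reads of Cd3d, Cd3e and Cd3g, which summed to 1111 to 1235 CPM in CP CML and 1351 to 1427 CPM in BC CML. Of these 3 genes only Cd3g was called higher (0.59 ± 0.0362, adjusted p = 1.68e-10), while Cd3d (−0.076 ± 0.0374, adjusted p = 0.0829) and Cd3e (0.020 ± 0.0446, adjusted p = 0.705) were not called, so the shift of the scale follows Cd3g. This scaling lowered the median log2 fold change of all genes to −0.26 (from −0.0083) and moved the calls over all genes from 3987 higher and 3999 lower to 2374 higher and 6961 lower. Gimap8, Gimap9, Gimap4, Gimap6, Gimap7, Gimap5 and Gimap3 were still called higher, with log2 fold changes from 0.18 for Gimap6 to 0.92 for Gimap4. Another scaling shifts all genes by about the same amount, so by construction the distance from the median of all genes hardly changed, at 0.24 for Gimap1 and 1.17 for Gimap4 on the log2 scale.

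The 8 genes occupy 124 kb of mouse chromosome 6 (build mm10), from chr6:48647234 to 48770851. In chromosomal order they are Gimap8, Gimap9, Gimap4, Gimap6, Gimap7, Gimap1, Gimap5 and Gimap3, with Gimap6 and Gimap3 on the minus strand and the others on the plus strand. In the GENCODE annotation a longer coding gene on the plus strand, Gm28053 (chr6:48718607-48752644), runs over Gimap7, Gimap1 and Gimap5. The antisense transcript Gimap1os overlaps 2391 bases of Gimap1. Neither Gm28053 nor Gimap1os is a row of the counts table, so no reads were reported under these names. Annotation and strand setting of the counting are not given in the sources used here. How the reads of these overlaps were otherwise assigned is uncertain. The transcripts of the 8 genes were otherwise well separated for reads of 101 bases. Of 28 pairs only Gimap3 and Gimap5 shared any stretch of that length, and it covered 1.61% of the windows of Gimap3 and 2.16% of those of Gimap5.

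The lost microRNA gives 2 mature forms whose seeds (bases 2 to 8, in capitals) pair with target transcripts. Their sequences are shown because they are the molecules that differ by genotype (RefSeq, GRCm38.p6, the assembly of mm10, plus strand of chr11:87756867-87756887 and chr11:87756903-87756925).
miR-142a-5p: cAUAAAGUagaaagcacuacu
miR-142a-3p: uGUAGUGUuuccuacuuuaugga
The longest annotated 3′UTR of each member was searched for the complement of seed bases 2 to 8 (called 7mer-m8), for that of bases 2 to 7 followed by A (7mer-A1), and for both at once (8mer). Gimap4, Gimap8 and Gimap6 held matches, all of them 7mers, and the other 5 members held none. The 4 windows are shown in the direction of the transcript with the match in capitals.
Gimap4, 7mer-A1 for miR-142a-3p, chr6:48691963-48691992, plus strand: gtagccagaacCACTACAtatccaatcatg
Gimap8, 7mer-A1 for miR-142a-5p, chr6:48660798-48660827, plus strand: gtatttgtattCTTTATAgccactctgatt
Gimap6, 7mer-A1 for miR-142a-5p, chr6:48704241-48704270, minus strand: aaggggctcttCTTTATAccaggaagaacc
Gimap6, 7mer-m8 for miR-142a-5p, chr6:48703176-48703205, minus strand: tatcatttgccACTTTATgtgctttcagtc
Matches of these kinds occurred in 30.7% of the 11509 tested genes with an annotated 3′UTR, whose median length was 1187 bases. The 3′UTRs of the members were 273 to 2822 bases long with a median of 693. Per kilobase of 3′UTR the members held 0.495 matches, which rests on 4 matches, and the tested genes 0.281. A match is a description of the sequence and not a measured binding site. The 3 genes with a match had log2 fold changes of 1.16 (Gimap4), 0.56 (Gimap8) and 0.42 (Gimap6), and those without one ranged from 0.23 to 0.78.

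Gimap5 and Gimap3 are close relatives that have both been tied to T cell survival, Gimap5 as a protein of lysosomes. Gimap5 (chr6:48746197-48754200) was at 102 CPM in the lowest, 117 CPM in the median and 122 CPM in the highest CP CML mouse, and at 177, 197 and 218 CPM in BC CML. The groups did not overlap, and the log2 fold change was 0.78 ± 0.0483 (SE, adjusted p = 2.03e-10), or 1.72-fold. Gimap3 (chr6:48764464-48770851) was at 998, 1157 and 1230 CPM (lowest, median, highest) in CP CML and at 1626, 1828 and 2061 CPM in BC CML. Its groups did not overlap either, and it was 1.63-fold higher with a log2 fold change of 0.70 ± 0.0572 (SE, adjusted p = 7.92e-09).

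Gimap1 is needed for mature T and B cells to persist in the periphery and is found at the Golgi apparatus. Gimap1 (chr6:48739047-48743795) had the smallest difference of the family, with 110, 127 and 138 CPM (lowest, median, highest) in CP CML and 141, 147 and 161 CPM in BC CML. The groups came within a few CPM of each other without overlapping. The log2 fold change was 0.23 ± 0.0467 (SE, adjusted p = 3e-04), or 1.18-fold, and it is the one member whose call was lost with CD3 scaling, as given above.

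Gimap4 had the largest difference. It is induced as thymocytes mature and has been linked to the pace of T cell death and to cytokine secretion. Gimap4 (chr6:48684578-48692062) was at 725, 918 and 938 CPM (lowest, median, highest) in CP CML and at 1832, 1955 and 2075 CPM in BC CML. The lowest BC CML mouse thus lay far above the highest CP CML mouse. The log2 fold change was 1.16 ± 0.0593 (SE, adjusted p = 1.7e-11), or 2.24-fold, which is larger than that of 91.7% of the genes tested.

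Gimap6 and Gimap7 act on other proteins of the autophagy machinery or of the family, Gimap6 by binding the Atg8 protein GABARAPL2 and Gimap7 by activating the GTPase of its partners. Gimap6 (chr6:48701583-48708244) was at 696, 766 and 837 CPM (lowest, median, highest) in CP CML and at 895, 1029 and 1131 CPM in BC CML. The groups did not overlap, with a log2 fold change of 0.42 ± 0.0521 (SE, adjusted p = 1.54e-06). Gimap7 (chr6:48718621-48724636) was at 45.1, 73.5 and 90.5 CPM in CP CML and at 84.8, 105 and 149 CPM in BC CML. It was the one member whose groups overlapped and the one with the widest spread relative to its mean. Its log2 fold change was 0.63 ± 0.165 (SE, adjusted p = 0.00385). Without CP CML mice 2 and 7, in which it was at 45.6 and 45.1 CPM, the log2 fold change of Gimap7 was 0.47 (adjusted p = 0.00263).

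Gimap8 carries several GTPase domains in a row, unlike the other members, and Gimap9 is among the least studied of the family. Gimap8 (chr6:48647234-48660875) was at 502, 637 and 686 CPM (lowest, median, highest) in CP CML and at 835, 906 and 968 CPM in BC CML. The groups were well apart, with a log2 fold change of 0.56 ± 0.0623 (SE, adjusted p = 4.24e-07). Gimap9 (chr6:48676135-48678704) was at 110, 121 and 132 CPM in CP CML and at 152, 166 and 181 CPM in BC CML. Its groups did not overlap, and its log2 fold change was 0.44 ± 0.0464 (SE, adjusted p = 1.88e-07).

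The levels of the members were compared with each other as RPKM (CPM per kilobase of the gene), using the deposited gene lengths. In CP CML the order was Gimap3 (534 ± 34.9 RPKM, SD, n = 8), Gimap4 (482 ± 47.1), Gimap6 (238 ± 15.0), Gimap8 (166 ± 16.8), Gimap9 (88.0 ± 5.07), Gimap1 (84.0 ± 5.62), Gimap7 (55.1 ± 12.9) and Gimap5 (49.7 ± 2.91). The ranges of Gimap3 and Gimap4, of Gimap9 and Gimap1, and of Gimap7 and Gimap5 overlapped. In BC CML Gimap4 (1079 ± 47.7 RPKM, SD, n = 6) stood before Gimap3 (868 ± 79.3), and the rest of the order was unchanged, with Gimap6 (318 ± 24.6), Gimap8 (245 ± 14.2), Gimap9 (120 ± 7.81), Gimap1 (98.7 ± 4.96), Gimap7 (85.6 ± 17.2) and Gimap5 (85.5 ± 6.04). There only Gimap1 and Gimap7, and Gimap7 and Gimap5, overlapped with their neighbour in the order.

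The first place in the family thus changed hands per kilobase of transcript. Gimap3 was above Gimap4 in 8 of 8 CP CML mice and Gimap4 was above Gimap3 in 6 of 6 BC CML mice. In CPM, which favors the longer Gimap3, Gimap4 was above Gimap3 in 4 of the 6 BC CML mice. Among all genes tested, ranked by mean RPKM, Gimap4 went from place 97 in CP CML to place 30 in BC CML and Gimap3 from place 90 to place 40.

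The reads of the family were also divided differently. Gimap4 took 22.7% ± 1.07 (SD, n = 8) of all Gimap reads in the CP CML mice and 30.7% ± 1.24 (SD, n = 6) in those with BC CML, and the groups did not overlap. The shares of Gimap6 (20.02% ± 1.90 and 16.1% ± 0.545), Gimap9 (3.18% ± 0.181 and 2.604% ± 0.117) and Gimap1 (3.30% ± 0.128 and 2.34% ± 0.190) were lower in every BC CML mouse than in any CP CML mouse. The shares of Gimap3 (29.9% ± 0.984 and 29.2% ± 1.34) and Gimap5 (3.01% ± 0.185 and 3.11% ± 0.163) overlapped between the groups, as did that of Gimap7. The share of Gimap8 overlapped by reads (14.5% to 16.7% and 13.7% to 14.6%) through CP CML mouse 2 alone, and per kilobase it was lower in every BC CML mouse (8.13% to 8.71%) than in any CP CML mouse (8.95% to 10.2%). Shares add up to the whole, so a larger share of Gimap4 lowers those of the others, and they do not depend on how libraries were scaled.

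**Figure D2:**
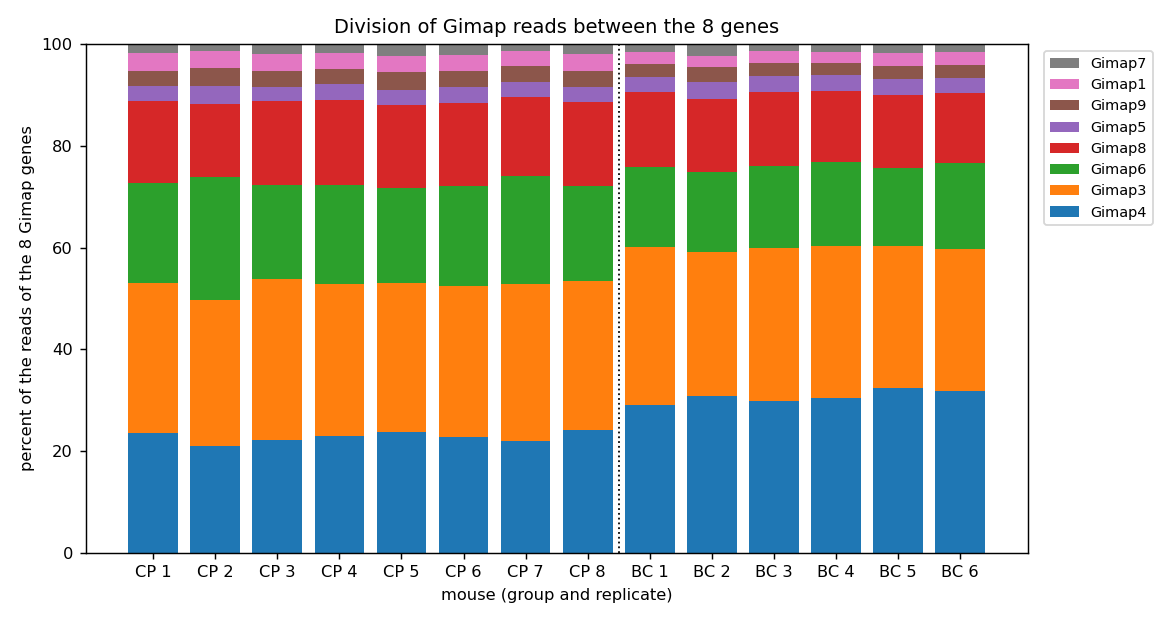
Percent of the summed reads of the 8 Gimap genes (y axis) that each gene took in each of the 14 mice (x axis, 1 bar per mouse, CP CML left of the dotted line). The lowest segment, Gimap4, takes 20.9% to 24.1% in the CP CML mice and 29.1% to 32.4% in the BC CML mice, while Gimap3 above it takes 28.8% to 31.7% and 27.9% to 31.1%.

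The members were also compared in how they varied from mouse to mouse within a group. The deviation of each mouse from its own group mean (log2 CPM, prior count 2) was compared between members over 14 mice, which share their sort and library steps within a mouse. Of the 28 pairs of members, 27 had a positive correlation, with a median r of 0.49, beside 50.3% positive and a median of 0.0036 over all pairs of the 9161 genes with an average log2 CPM of at least 3. It was highest for Gimap8 and Gimap4 (r = 0.87) and lowest for Gimap6 and Gimap7 (r = −0.14). Gimap6 was also near 0 with Gimap8 (r = 0.064), Gimap4 (r = 0.057) and Gimap1 (r = 0.071) over the 14 mice. CP CML mouse 2 went against a positive correlation there, with Gimap6 at 0.14, Gimap8 at −0.28 and Gimap4 at −0.26 from the group mean. CP CML mice 7 and 2 were the lowest, with a mean deviation of −0.20 and −0.15, and both were the lowest CP CML mice in 5 of the 8 genes. Without these 2 mice, 25 of the 28 correlations were positive with a median of 0.48, and that of Gimap8 and Gimap4 was 0.60. The pairs at both ends changed, with Gimap8 and Gimap3 highest (r = 0.86) and Gimap9 and Gimap1 lowest (r = −0.14). The same 2 mice had the fewest Mir142 reads of the CP CML group (302 and 347).

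**Figure D3:**
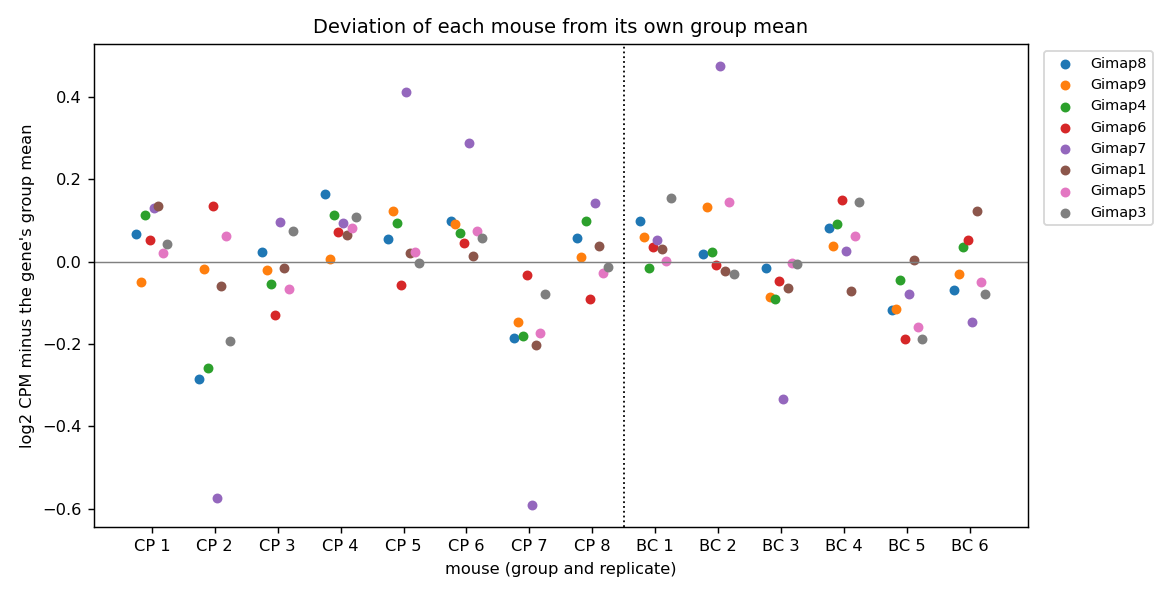
Deviation of log2 CPM from the gene's own group mean (y axis) for the 8 Gimap genes (colors) in each of the 14 mice (x axis). Most points of CP 2 and CP 7 lie below 0, and Gimap7 spreads the most.

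The genes that followed the mean deviation of the members most closely, out of 9153 that are no members, were Tyk2 (r = 0.93), Trip4 (r = 0.91), Ing4 (r = 0.91), A630001G21Rik (r = 0.90) and Cd3e (r = 0.90) over 14 mice. These r are the highest of many and are given as a description. Without CP CML mice 2 and 7 they were between 0.77 and 0.83. Only Trip4 of these 5 differed between the groups, with 52.3 to 67.0 CPM in CP CML and 94.5 to 115 CPM in BC CML (log2 fold change 0.80 ± 0.0587 SE, adjusted p = 2.11e-09).

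Within 1 Mb on either side lie 36 other genes of the table, of which 24 were tested, 10 were higher, 11 were lower and 3 were not called (7 higher and 14 lower with CD3 scaling), with a median log2 fold change of −0.13 against 0.60 for the 8 members. Over all genes 32.6% were higher and 32.7% lower, so both TMM shares of the neighbours were above those of all genes. With CD3 scaling 2374 of all 12248 genes were higher and 6961 lower. On the side of Gimap8 the nearest gene was AI854703, 13.5 kb away, which was lower at 1.30 to 2.66 CPM in BC CML against 3.30 to 4.78 CPM in CP CML (log2 fold change −1.08 ± 0.173 SE, adjusted p = 2.93e-05). Next came Zfp775 at 24.0 kb (−0.53 ± 0.123, adjusted p = 0.00105) and Repin1 at 48.2 kb (0.71 ± 0.124, adjusted p = 7.09e-05), which encode zinc finger proteins.

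On the side of Gimap3 the next tested genes were Tmem176b and Tmem176a, a pair of membrane proteins of myeloid and some lymphoid cells, 63.0 and 70.6 kb away. Tmem176b was at 7.27 to 9.33 CPM in CP CML and 121 to 158 CPM in BC CML (log2 fold change 4.08 ± 0.0706 SE, adjusted p = 2.28e-17), and Tmem176a was at 5.06 to 7.91 and 98.1 to 135 CPM (4.12 ± 0.101, adjusted p = 4.01e-15). Both differences were larger than that of any Gimap gene. Igf2bp3, which encodes an RNA-binding protein, rose from 0.755 to 2.18 CPM in CP CML to 18.3 to 48.9 CPM in BC CML at 314 kb (4.56 ± 0.310, adjusted p = 8.9e-09).

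**Figure D4:**
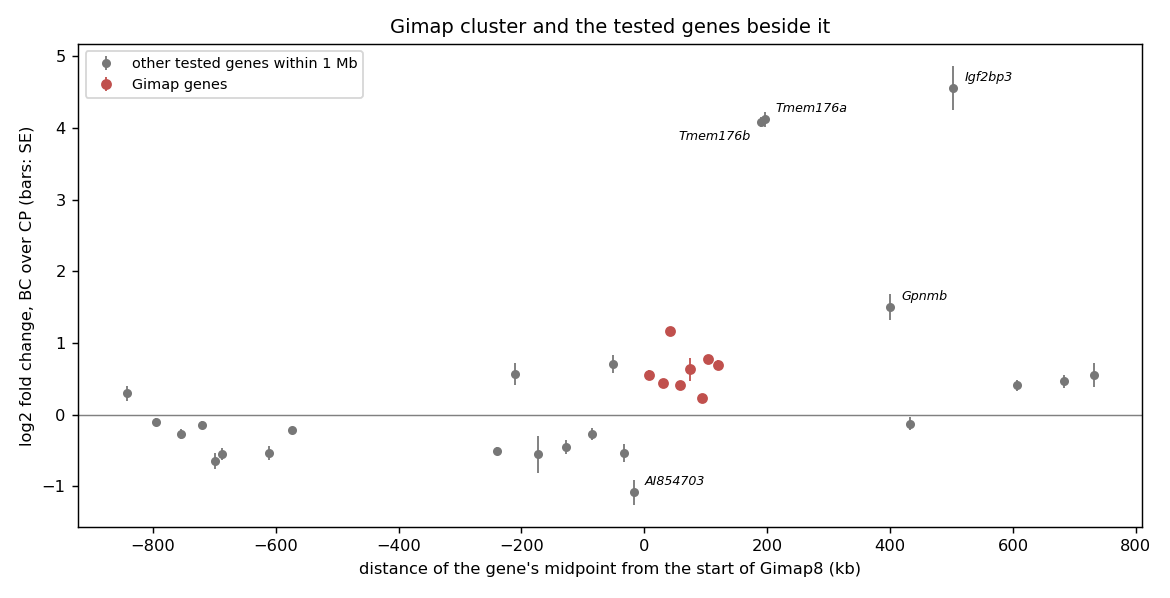
Log2 fold change of BC over CP (y axis, bars show the SE) of the 8 Gimap genes and the 24 other tested genes within 1 Mb, by the distance of the gene's midpoint from the start of Gimap8 (x axis, kb). All 8 Gimap genes lie above 0 with TMM scaling (Gimap1 at −0.014 with CD3 scaling), AI854703 lies below and Tmem176b, Tmem176a and Igf2bp3 lie above 4.

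The sequence before each gene was searched for short motifs of lymphocyte transcription factors (RefSeq promoters, 250 bases before to 50 after the start, both strands, 8 of 8 members matched). The ETS core GGAAGT was found in 4 members (Gimap9, Gimap6, Gimap1 and Gimap5) and in 30.1% of the 9546 promoters of tested genes. The RUNX motif TGTGGT was found in 3 members and in 13.1% of all promoters. FOXO (TGTTTAC, 2.45% of all) and IKAROS (TGGGAA, 22.7%) matches occurred in Gimap3 alone, and a TCF1/LEF1 match (CTTTGAA, 3.51%) in Gimap7 alone. No member held the letters GGGTGTG of KLF factors (8.25%), CAGCTG of E proteins (14.3%) or AGATAA of GATA factors (6.38%) in this window. The 3 windows with RUNX letters are shown because the promoter of Gimap4, the member with the largest difference, is one of them. The match is in capitals and lies on the opposite strand of each gene, so it reads as the reverse complement.
Gimap4, chr6:48684422-48684451, plus strand: agcccatgggtACCACAtgagatgacacag
Gimap7, chr6:48718531-48718560, plus strand: ctgaagcatccACCACAacaggggactgtt
Gimap1, chr6:48738941-48738970, plus strand: ggaatgctaagACCACAactacatggaaaa
These 3 members include the largest and the smallest log2 fold change of the family (1.16 for Gimap4 and 0.23 for Gimap1, the latter at −0.014 with CD3 scaling), with 0.63 for Gimap7.

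GIMAP proteins have been linked to BCL2 family proteins, to IL-7 signals, to GSK3β and to the Atg8 proteins of autophagy, and 15 such genes were read in the same test. Of these, 6 were higher, 2 were lower and 7 were not called, with a median log2 fold change of 0.13. Over all genes 32.6% were higher and 32.7% lower. With CD3 scaling 4 of the 15 were higher and 5 lower, where 2374 of all 12248 genes were higher and 6961 lower. Gabarapl1, an Atg8 protein, was at 5.56 to 8.31 CPM in CP CML and 19.5 to 27.9 CPM in BC CML (log2 fold change 1.78 ± 0.0877 SE, adjusted p = 1.1e-11). Gabarapl2, the partner of Gimap6, was higher by less (0.44 ± 0.0563, adjusted p = 2.09e-06). Gabarap, the other Atg8 gene of the list, was not called (0.025 ± 0.0435, adjusted p = 0.624).

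Among the BCL2 family, Bcl2l1, which encodes the survival protein BCL-XL, went from 15.6 to 22.2 CPM in CP CML to 37.7 to 43.8 CPM in BC CML (1.08 ± 0.0692, adjusted p = 3.18e-10). Bcl2 itself was at 423 to 673 and 538 to 1082 CPM and was not called (0.38 ± 0.171, adjusted p = 0.0651), nor was Mcl1 (−0.042 ± 0.0552, adjusted p = 0.515). With CD3 scaling Mcl1 was called lower (−0.29, adjusted p = 8.95e-05). Of the death effectors, Bak1 was higher (0.40 ± 0.0498, adjusted p = 1.73e-06) and Bax was lower (−0.28 ± 0.0546, adjusted p = 0.00024). Bbc3, which encodes the death inducer PUMA, was higher with overlapping groups (0.75 ± 0.223, adjusted p = 0.00831), and with CD3 scaling it was not called (0.50, adjusted p = 0.0761). Il7r, the receptor of the survival cytokine IL-7, was at 959 to 1490 CPM in CP CML and 388 to 751 CPM in BC CML, without overlap (−1.004 ± 0.147, adjusted p = 3.01e-05). Of 10 apoptosis and p53 target genes, 3 were higher, 2 were lower and 5 were not called. These shares were near or below the 32.6% and 32.7% of all genes. With CD3 scaling 1 was higher and 5 were lower, where 2374 of all 12248 genes were higher and 6961 lower.

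Il7r also belongs to the genes of naive T cells, and the Gimap genes, which naive T cells express strongly, differed in the other direction from most of that list. Of 15 naive T cell genes, 11 were lower, 1 was higher and 3 were not called, with a median of −0.67. With CD3 scaling 0 were higher and 14 lower, and with the replicate block 0 and 10. Over all genes 32.6% were higher and 32.7% lower, and with CD3 scaling 2374 were higher and 6961 lower of 12248. The same backgrounds hold for the lists that follow. Tcf7, a transcription factor of naive and memory cells, was lower (log2 fold change −0.67 ± 0.0648 SE, adjusted p = 7.09e-08), as was Actn1 (−1.96 ± 0.0553, adjusted p = 6.44e-15). Of 16 effector and memory T cell genes, 12 were higher, 2 were lower and 2 were not called (10 higher and 2 lower with CD3 scaling), with a median of 0.71. Eomes, a transcription factor of cytotoxic memory cells, rose by 1.73 ± 0.107 (adjusted p = 1.5e-09) and the cytotoxic granule enzyme Gzmb by 2.46 ± 0.223 (adjusted p = 4.53e-07) on the log2 scale. The 2 lower genes were Prf1, which encodes the pore-forming granule protein perforin (−0.18 ± 0.0629, adjusted p = 0.0189, and 0.0516 without BC CML mouse 6), and Prdm1, a transcription factor of effector cells (−0.88 ± 0.11, adjusted p = 1.99e-06). In the T cell identity list 8 genes were higher, 2 lower and 5 not called of 15 (4 higher and 6 lower with CD3 scaling). Of the CD8 chains, Cd8a was higher (0.87 ± 0.0757, adjusted p = 2.38e-08) and Cd8b1 was not called (0.069 ± 0.0631, adjusted p = 0.352). With CD3 scaling Cd8b1 was called lower (−0.18, adjusted p = 0.0183). Cd4 was lower (−0.73 ± 0.0945, adjusted p = 4.98e-06). The part of a different mix of CD4 and CD8 or of naive and effector cells in the Gimap differences was not tested.

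**Figure D5:**
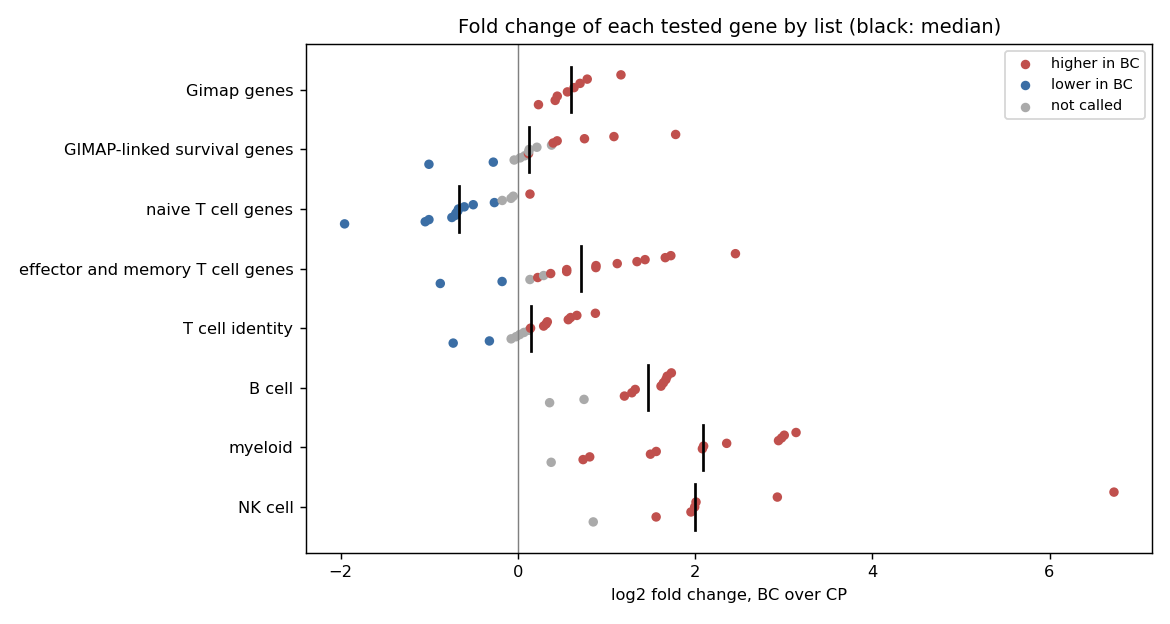
Log2 fold change of BC over CP (x axis) of each tested gene of the Gimap family and of 7 gene lists (rows), colored by the call, with the list's median as a black bar. All 8 Gimap points lie above 0 with TMM scaling (Gimap1 at −0.014 with CD3 scaling), the naive list has its median at −0.67 and the effector and memory list at 0.71, and the myeloid, B cell and NK cell lists lie further to the right.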

How the data were processed

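RNA of sorted spleen T cells from 8 CP CML and 6 BC CML mice was measured by mRNA sequencing in read pairs of 101 bases each. The authors used Trimmomatic and FASTP to trim the reads, STAR 2.6.0 for alignment (mm10) and HTSeq 0.11.1 for counting by gene (versions from the submitters' processing notes), and deposited raw counts with each gene's position and length. Annotation and strand setting are not given in the sources used here. HTSeq by default leaves out reads that map to several places. Each column was matched to its mouse by name.

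Counts were filtered by filterByExpr on the group, normalized by TMM and tested by edgeR 4.0.16 (glmQLFit, robust, glmQLFTest, R 4.3.3) without covariates, adjusted by Benjamini-Hochberg over 12248 genes at a threshold of 0.05. The SE is the absolute log2 fold change over the square root of F. CPM used TMM library sizes. On simulated counts (12183 genes, 200 changed, median absolute log2 fold change of 1.00) the test recovered 188 with 7 other calls. These changes were larger than those of every member but Gimap4, and far fewer genes were changed than were called in the data. The recovery therefore does not carry over to smaller differences or to data in which most genes differ. The alternatives were RLE factors, CD3 chain reads as library size, unscaled library sizes, DESeq2 1.42.0, edgeR's likelihood ratio test, no filter, a filter of 1 CPM in 6 samples, a replicate block, Gimap3 and Gimap5 added together, CPM in place of RPKM and leaving out each mouse. The replicate block left out CP CML mice 7 and 8, whose numbers no BC CML mouse has. Leaving out CP CML mice 2 and 7 together was chosen after seeing the data.

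The members, lists and tests were chosen with earlier results of these data known. The genes named are the members, Mir142, genes of the fixed lists, tested genes within 1 Mb of the cluster and the 5 genes most correlated with the members at an average log2 CPM of at least 3. Other lists were erythroid (2 of 5 tested genes higher, 0 lower) and endothelial (0 of 3 tested called by the quasi-likelihood test, 0 at an unadjusted p under 0.05, 1 by DESeq2). Of the 9 erythroid genes 6 matched a symbol of the table. The 3′UTRs came from GENCODE release M21 and the miRNA and promoter sequences from RefSeq (GRCm38.p6).

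The libraries are separate mice, so the spread between them includes that between animals. Replicates differed by more than sampling noise (chi-square per degree of freedom from 2.99 to 20.8 in CP CML and from 7.89 to 21.6 in BC CML), and none was counted as a repeat. Sample names carry a number that differs between the groups. If it marks a cohort, cohort and genotype cannot be told apart.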

Additional observations from a re-analysis of the deposited data

Results flagged for a closer look

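In 54 groups of values (a gene's level or share, or a list's sum, in the mice of 1 group), 2 mice lay further from the others than Dixon's test at 95% allows, where chance alone gives about 1 in 20, or 2.7 of 54. Gimap5 took 3.46% of the Gimap reads in CP CML mouse 2, and the next highest CP CML mouse had 3.02%. That mouse had the lowest CPM of its group for Gimap8, Gimap4 and Gimap3, which make up most of the Gimap reads. The GIMAP-linked survival genes summed to 3477 CPM in CP CML mouse 7, and the next highest CP CML mouse had 3107 CPM. Both are the mice with the lowest mean Gimap deviation in the CP CML group.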

How the results depend on the processing

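With another test, normalization or filter, 7 of the 8 Gimap genes stayed called higher under all 8 alternatives, and Gimap1 lost its call when scaled to CD3 chain reads (−0.014, adjusted p = 0.764) and stayed called under the other 7. The highest adjusted p of Gimap7 under these alternatives was 0.0404, with the replicate block. With each of the 14 mice left out in turn, all 8 members were called in every fit, at log2 fold changes from 0.20 to 0.25 for Gimap1, 0.52 to 0.69 for Gimap7 and 1.13 to 1.18 for Gimap4. Without CP CML mice 2 and 7 together all 8 stayed called. Gimap3 and Gimap5 added together and tested as 1 gene were at 0.71 (adjusted p = 3.7e-09). The number of genes called (7986) ranged from 7280 to 9335 over the alternatives, and that beside the cluster (21) from 19 to 22. The replicate numbers do not pair the samples, which came from different mice, and the correlation of same-numbered mice averaged −0.024 (2 of 6 pairs above 0.1). With the replicate block, a fit that leaves out CP CML mice 7 and 8, 8 Gimap genes and 7280 of the 12175 genes tested were called (3649 higher, 3631 lower). Bcl2 was called by the likelihood ratio test (0.38, adjusted p = 0.041), with the block (0.43, adjusted p = 0.0164) and without BC CML mouse 5 (0.44, adjusted p = 0.0409) or 6 (0.45, adjusted p = 0.0344), and was at 0.23 (adjusted p = 0.191) without BC CML mouse 4 and 0.14 (adjusted p = 0.521) with CD3 scaling. Cd3e was called lower with CD3 scaling (−0.22, adjusted p = 0.000142). It ranged from −0.0012 (without CP CML mouse 7) to 0.035 (without BC CML mouse 5) with each mouse left out. Without CP CML mice 2 and 7 it was at −0.027. Cd3d was called lower with CD3 scaling (−0.32, adjusted p = 3.93e-07) and without BC CML mouse 6 (−0.095, adjusted p = 0.0415). Cd8b1 was called lower with CD3 scaling (−0.18, adjusted p = 0.0183). Of the endothelial genes 1 was called with DESeq2, 1 with CD3 scaling and 1 with no filter, against 0. At this depth the lowest member had 736 reads in a mouse, so the spread between mice limits the members more than counting does.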
